A study of Homo sapiens with 9 samples.

Results

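The 44 genes described here encode the folding machinery of the endoplasmic reticulum (ER), its stress sensors and degradation pathway, and the entry gate of the secretory pathway. They were chosen by symbol around AGR2, a gene already known from these data to be higher after depletion of LOXL2, and each matched 1 Ensembl identifier among the 63657 genes of the expression table. The cells were of the MDA-MB-231 line, which derives from a breast carcinoma without hormone receptors or HER2 amplification, and carried a short hairpin RNA that was either a control (shControl, 2 RNA-seq libraries) or directed against the lysyl oxidase-like enzyme LOXL2 (shLOXL2, 2 RNA-seq libraries). The labels give no hairpin sequence, no time after infection, and no statement that replicates were separate cultures, so p-values measure only the spread between these libraries, which may be technical. The series also holds H3K4ox ChIP-seq and ATAC-seq peak lists, which were not analysed here because no gene annotation of their genome build was used.

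Secreted and membrane proteins enter the ER through the SEC61 channel, lose their signal peptide, and fold with the help of chaperones such as BiP (HSPA5) and of disulfide isomerases that form and rearrange cysteine bridges. Misfolded proteins are drawn back to the cytosol and destroyed, a route called ER-associated degradation. When unfolded proteins accumulate, the sensors IRE1 (ERN1), ATF6 and PERK (EIF2AK3) start the unfolded protein response, in which XBP1, ATF6 and ATF4 raise the transcription of chaperones, degradation factors and, under lasting stress, the death-linked factor CHOP (DDIT3). AGR2 is a disulfide isomerase of mucus-secreting epithelia that is also produced by many carcinomas. The comparison asked whether the higher AGR2 level came with changes in these other genes.

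Several of these genes carry an ER stress element, the promoter sequence through which ATF6 and XBP1 act, and these elements are shown because they mark the genes a stress response would be read from. RefSeq promoters (GRCh38.p14, 250 bases before to 50 after the start of transcription) were found for 41 of the 44 genes, all but DERL1, SEC24D and SPCS1, and were searched on both strands. The ER stress element ERSE, CCAAT and CCACG with any 9 bases between them, was present in 5 of the 41 genes and in 0.0769% of all 35116 promoters. Its variant ERSE-II, ATTGG and CCACG with any 1 base between them, was present in 3 of the 41 and in 0.0541% of all promoters. The matches are written 5′ to 3′ in the direction of the motif, with the fixed letters in capitals.
HSPA5, 66 to 48 bases before the start: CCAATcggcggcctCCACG
HSP90B1, 194 to 176 bases before: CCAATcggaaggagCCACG
HSP90B1, 89 to 71 bases before, opposite strand: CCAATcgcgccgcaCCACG
PDIA6, 86 to 68 bases before: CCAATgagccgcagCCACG
XBP1, 52 to 34 bases before: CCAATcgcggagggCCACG
CRELD2, 80 to 62 bases before, opposite strand: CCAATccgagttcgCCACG
HERPUD1, ERSE-II, 117 to 107 bases before: ATTGGgCCACG
HYOU1, ERSE-II, 185 to 175 and 79 to 69 bases before, opposite strand: ATTGGaCCACG
SDF2L1, ERSE-II, 188 to 178 bases before, opposite strand: ATTGGtCCACG

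A further element, the UPRE core TGACGTGG, was present in HYOU1, SSR3, SSR4, TXNDC5 and TXNDC11 and in 0.729% of all promoters. It holds the letters CCACG on its opposite strand, and in HYOU1 it overlaps the first ERSE-II match. The amino acid response element searched as TTGCATCA, a site of ATF4, was present in HERPUD1 alone among the 41 genes and in 0.866% of all promoters. The promoters of HSPA5, the standard reporter of ER stress, and of AGR2 are printed whole, 5′ to 3′ on the strand of the gene, with any match to these 4 motifs in capitals.
HSPA5, chr9:125241294-125241593, minus strand: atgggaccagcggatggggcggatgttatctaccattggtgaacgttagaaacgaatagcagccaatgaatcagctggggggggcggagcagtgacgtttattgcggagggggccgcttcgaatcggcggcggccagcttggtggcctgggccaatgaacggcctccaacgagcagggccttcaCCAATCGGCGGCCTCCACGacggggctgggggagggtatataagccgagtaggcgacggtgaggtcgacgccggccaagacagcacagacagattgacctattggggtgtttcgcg
AGR2, chr7:16804950-16805249, minus strand: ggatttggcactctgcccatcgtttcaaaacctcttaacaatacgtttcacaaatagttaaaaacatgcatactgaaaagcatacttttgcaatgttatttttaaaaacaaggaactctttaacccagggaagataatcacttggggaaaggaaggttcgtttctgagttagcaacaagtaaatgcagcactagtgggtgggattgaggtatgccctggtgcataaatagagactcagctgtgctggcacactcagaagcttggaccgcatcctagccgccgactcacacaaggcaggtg
The AGR2 window holds none of the 4 motifs as spelled, which says only that these letters are not in it.

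Levels are in FPKM, fragments scaled to transcript length and to the mapped fragments of the library, so they can be compared between genes. The FPKM sums of the libraries were 1244377 and 1221571 in shControl and 1330441 and 1369375 in shLOXL2, and mitochondrial genes took 20.4% and 18.5% of them in shControl and 22.8% and 22.1% in shLOXL2, higher in both shLOXL2 libraries. The part of this share in the results was not tested. The targeted gene LOXL2 was at 85.5 and 84.5 against 15.2 and 12.1 FPKM. Of 6 markers of MDA-MB-231 or mesenchymal-like breast cells 5 averaged at least 1 FPKM, led by VIM at 2011 to 2104 FPKM, while SPARC stayed below 1 FPKM in all 4 libraries. Of 7 fibroblast markers 2 averaged at least 1 FPKM, COL1A1 and PDGFRB, and the summed level of the list was 5.89 and 7.29 in shControl, and in shLOXL2 12.3 and 10.2 FPKM. Of 7 haematopoietic and plasma cell markers 2 did so, CD14 and the epithelial syndecan SDC1 (44.8 to 55.2 FPKM), with list sums of 52.5, 57.1, 46.3 and 49.2 FPKM and CD3E listed at 0 throughout. None of 3 endothelial markers reached 1 FPKM in any library. The part of these markers in the results was not tested.

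Changes were tested for the 16987 genes averaging 1 FPKM or more, on log2(FPKM + 1) values with limma, a linear model that shares variance information across genes, and a gene passed at a Benjamini-Hochberg adjusted p below 0.05 over all of them. All 44 ER genes were above the filter, with means from 5.95 FPKM for the stress factor CREB3L2 to 1016 FPKM for P4HB. Of the 43 genes other than AGR2, 3 rose (6.98%) and 6 fell (14.0%), beside 8.35% and 8.54% of all genes tested. Of the genes averaging 5 FPKM or more 10.7% rose and 10.6% fell. Together 20.9% of the 43 passed, beside 16.9% of all genes and 21.3% of those averaging 5 FPKM or more. The median log2 change of these 43 genes was -0.031, beside -0.0041 over all genes and 0.0029 over those averaging 5 FPKM or more. The size of the change was under 0.25 on the log2 scale for 34 of the 43 genes (79.1%). The same held for 63.1% of all genes and 66.1% of those averaging 5 FPKM or more. With 2 libraries a group, an exact permutation test of a single gene cannot go below p = 0.333. Every call therefore rests on the limma model, which combines each gene's own spread with the variance shared across genes.

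**Figure D1:**
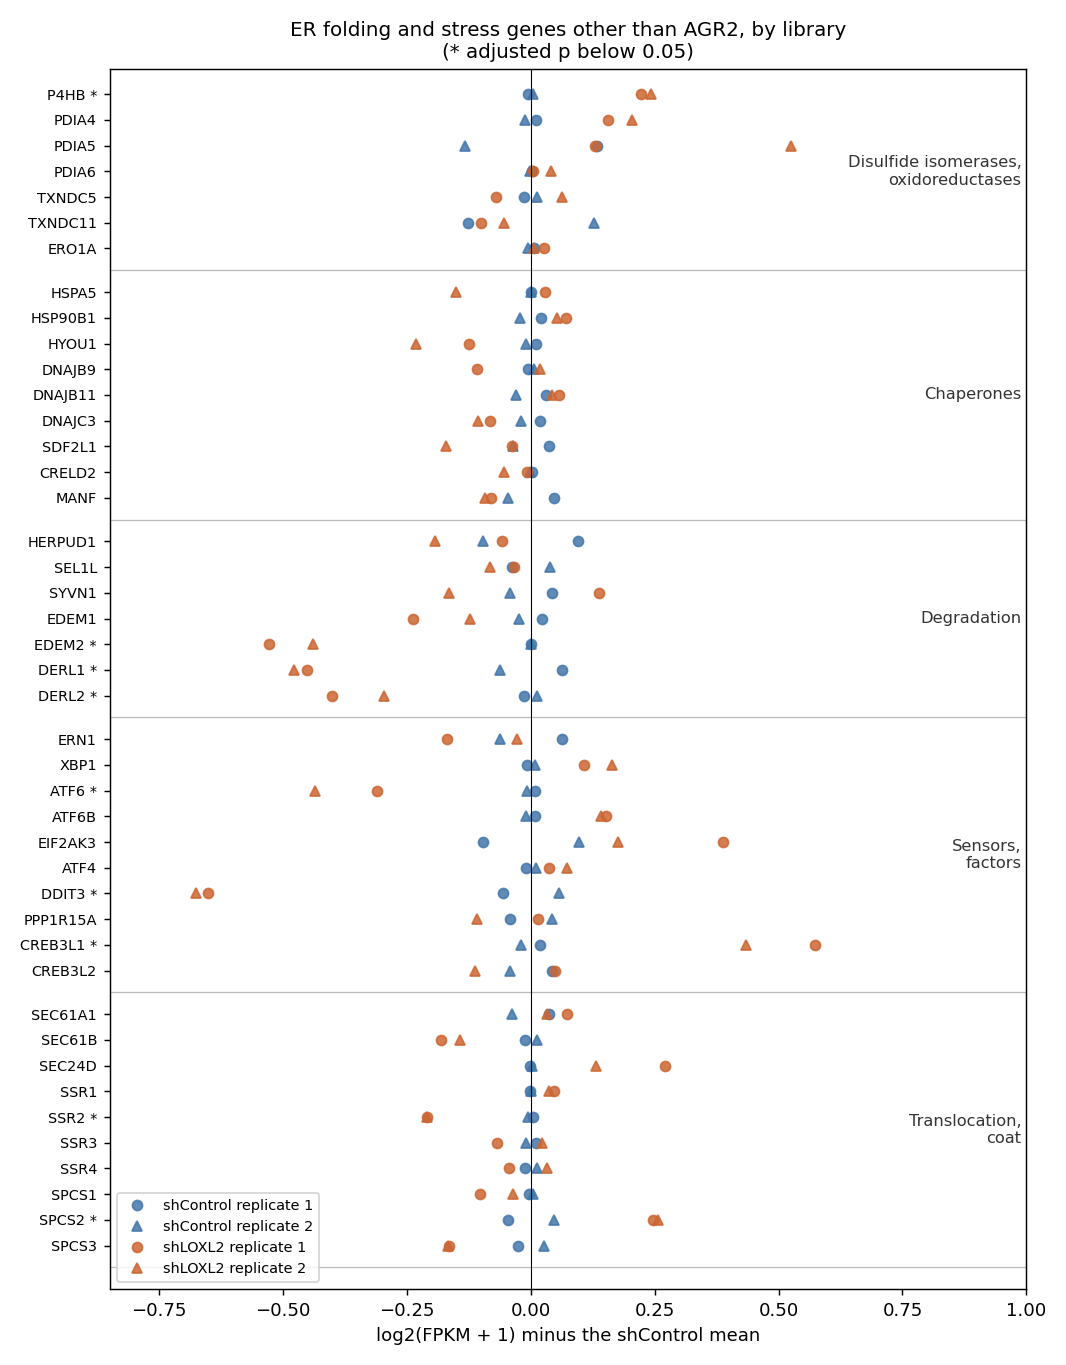
Each of the 43 ER genes other than AGR2 is a line of 4 points, 1 per library, placed at its log2(FPKM + 1) minus the shControl mean, with circles for replicate 1, triangles for replicate 2, blue for shControl and orange for shLOXL2. Most genes lie within 0.25 of 0, and the starred ones (3 that rose and 6 that fell) passed an adjusted p of 0.05.

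In the shControl libraries AGR2 was measured at 38.6 and 69.6 FPKM, against 316 and 320.2 FPKM after depletion of LOXL2. Both shLOXL2 values lay far above both control values, while the controls differed from each other 1.80-fold, more than for any of the other 43 genes, whose median was 1.02-fold and whose highest was 1.23-fold (PDIA5). The group means differed 5.89-fold, with a log2 difference of 2.59 ± 0.32 (SE, n = 2 per group). By mean level AGR2 was the 24th of the 44 genes in shControl and the third in shLOXL2, behind P4HB and HSP90B1. Because the gene set was built around this rise, its values are a description, and AGR2 is left out of the counts below.

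Of the 7 other disulfide isomerases and oxidoreductases 1 rose (14.3%) and none fell, beside 8.35% and 8.54% of all genes tested. None of the 7 had an unadjusted p below 0.05 toward lower values in limma. P4HB, the founding protein disulfide isomerase and also a subunit of prolyl 4-hydroxylase, was the most abundant of all 44 genes, at 931 and 938 in shControl, and in shLOXL2 1091 and 1106 FPKM. Its groups were well apart and it rose 1.17-fold (log2 0.23 ± 0.031 SE, n = 2 per group, limma adjusted p = 0.0298). PDIA4, an isomerase with additional thioredoxin-like domains, stood at 82.2 and 80.9 against 90.9 and 94.1 FPKM, higher in both shLOXL2 libraries, and did not pass (limma adjusted p = 0.0533). It did pass with a filter of 5 FPKM (limma adjusted p = 0.0443), with median-ratio scaling (0.0486) and with protein-coding genes alone (0.0192). With protein-coding genes alone 2136 of 11216 genes rose and 2178 fell, against 1419 and 1450 of 16987 in the main fit. PDIA5 ran from 7.89 to 13.0 FPKM with overlapping groups. ERO1A, the oxidase that feeds the isomerases with oxidising power, was nearly level at 114.5, 113.6, 116.1 and 114.6 FPKM, with a log2 difference of 0.016 and a 95% interval from -0.069 to 0.10. PDIA6 (0.023), TXNDC5 (-0.0038) and TXNDC11 (-0.077), further members with thioredoxin domains, had log2 differences close to 0. Without AGR2 the 7 genes summed to 1462 and 1469 in shControl, and in shLOXL2 to 1626 and 1665 FPKM, a difference in which P4HB had the largest part. The sums were not scaled to the FPKM totals of the libraries, which were higher in shLOXL2.

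None of the 9 chaperones and co-chaperones passed limma's threshold, and 1, HYOU1, had an unadjusted p below 0.05, toward lower values. Over all genes tested 17.6% had such a p toward higher and 18.2% toward lower values. Their log2 differences ran from -0.18 to 0.062, and the highest upper end of any of the 9 intervals (95%, limma) was 0.16. HSPA5, the ER Hsp70 BiP whose stress element is printed above, stood at 70.33 and 70.34 in shControl, and in shLOXL2 at 71.8 and 63.3 FPKM. The controls lay between the shLOXL2 libraries, and the log2 difference was -0.061 with an interval from -0.28 to 0.16 (limma adjusted p = 0.603). HSP90B1, the ER Hsp90 GRP94, was at 435 and 422 FPKM against 450.3 and 444 FPKM, higher in both shLOXL2 libraries by a log2 of 0.062 (interval -0.035 to 0.16, adjusted p = 0.279). DNAJB9, a BiP co-chaperone and a usual target of XBP1, was at 20.6 and 20.8 against 19.1 and 21.0 FPKM, so that its groups overlapped. SDF2L1, which is among the genes most readily induced by ER stress, was at 14.9 and 14.1 against 14.1 and 12.8 FPKM, with both shLOXL2 values below the controls and a log2 difference of -0.11 (interval -0.31 to 0.095).

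HYOU1, a nucleotide exchange factor of BiP, had the largest difference of the 9, at 104.7 and 103.3 against 95.3 and 88.4 FPKM. Both shLOXL2 values lay below the controls (log2 -0.18, interval -0.33 to -0.030, limma adjusted p = 0.103). HYOU1 passed with protein-coding genes alone (limma adjusted p = 0.0333), where a larger share of all genes passed. DNAJB11, DNAJC3, CRELD2 and MANF had log2 differences of 0.050, -0.094, -0.030 and -0.086. The 9 genes together summed to 1041 and 1008 in shControl, and in shLOXL2 to 1039 and 1014 FPKM, so the summed groups overlapped. The 8 genes with an ERSE or ERSE-II match, which lie in 4 of the functional groups, had log2 differences from -0.18 (HYOU1) to 0.14 (XBP1). None passed (limma adjusted p from 0.0971 to 0.663), and XBP1 and HYOU1 had an unadjusted p below 0.05. Of all genes tested 16.9% passed and 35.9% had such an unadjusted p. Among the 33 genes with a promoter and neither match, 4 rose, AGR2 included, and 5 fell. With only 8 genes, a count of 0 says little about the element.

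Of 7 genes of ER-associated degradation 3 fell (42.9%) and none rose in limma, beside 8.54% and 8.35% of all genes tested. None of the 7 had an unadjusted p below 0.05 toward higher values. EDEM2, which trims mannose from misfolded glycoproteins and so marks them for disposal, was at 13.09 and 13.08 in shControl, and in shLOXL2 at 8.77 and 9.39 FPKM (log2 -0.48 ± 0.051 SE, n = 2 per group, limma adjusted p = 0.0226). DERL1, a derlin of the membrane channel through which substrates leave the ER, went from 73.4 and 67.1 to 51.1 and 50.1 FPKM (log2 -0.46 ± 0.057, limma adjusted p = 0.0272). DERL2, its paralogue, went from 92.7 and 94.5 to 70.6 and 76.0 FPKM (log2 -0.35 ± 0.050, limma adjusted p = 0.0333). For each of these 3 genes both shLOXL2 libraries lay below both controls, at 69.4%, 72.0% and 78.3% of the control mean. The DERL2 locus overlaps MIS12 in RefSeq, and MIS12 was lower as well (38.2 and 38.0 against 24.8 and 26.9 FPKM, log2 -0.54). The sources used here do not say whether the authors' counting used strand, so reads of such overlapping genes cannot be told apart.

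EDEM1, a stress-induced relative of EDEM2, was at 18.8 and 18.2 against 15.5 and 16.9 FPKM and did not pass (log2 -0.18, limma adjusted p = 0.128). HERPUD1, a membrane protein of the degradation complex with an ERSE-II and an ATF4-type site in its promoter, was at 72.7 and 63.5 against 65.2 and 59.4 FPKM with overlapping groups (log2 -0.13, interval -0.40 to 0.15). The core ubiquitin ligase SYVN1 (HRD1) and its partner SEL1L had log2 differences of -0.014 and -0.059, and their groups overlapped. Summed over the 7 genes, the level was 327 and 314 in shControl, and in shLOXL2 269 and 264 FPKM.

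**Figure D2:**
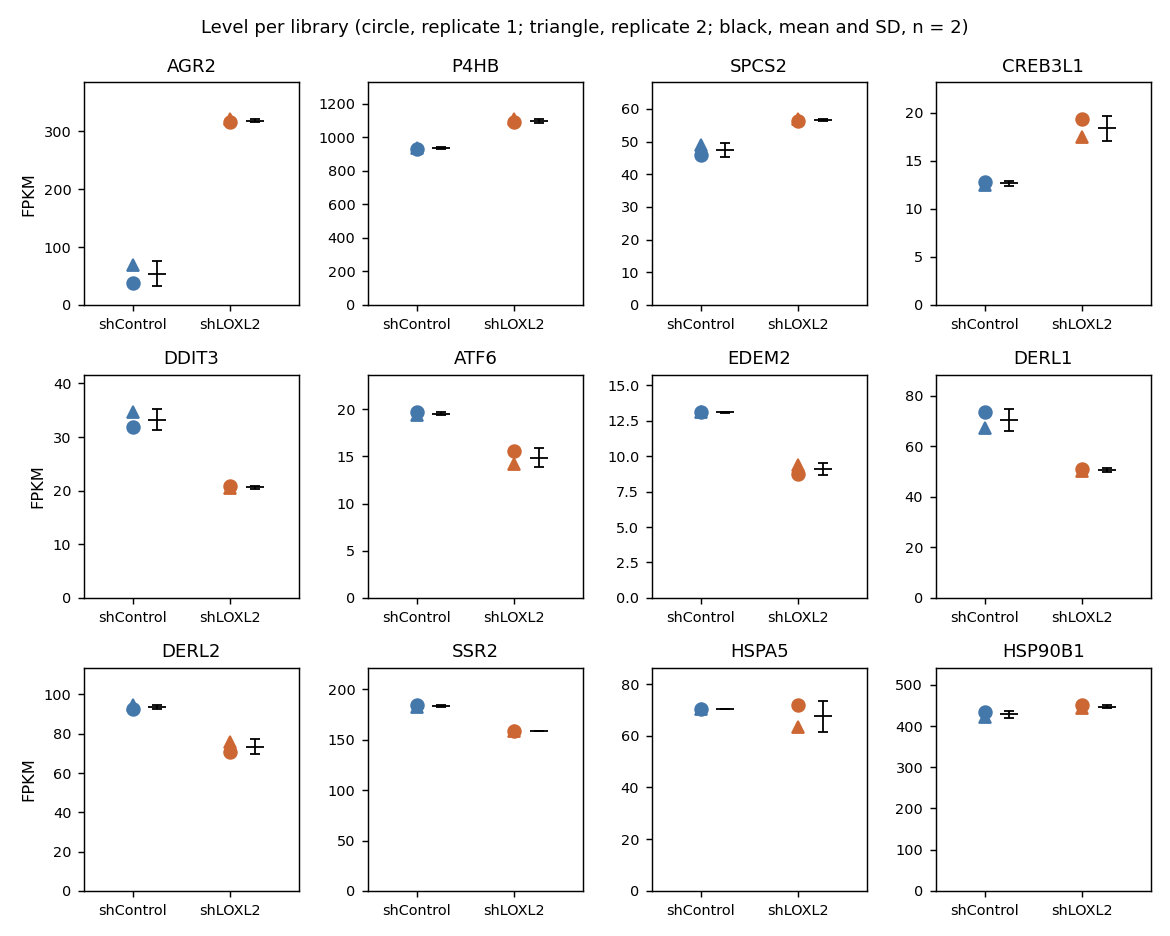
FPKM of AGR2, of the 9 other ER genes that passed, and of the chaperones HSPA5 and HSP90B1, with 1 point per library on axes that start at 0 and the mean and SD (n = 2) in black beside them. AGR2 goes from 38.6 and 69.6 to 316 and 320.2 FPKM, the other 9 differ by less, and both HSPA5 controls lie between the shLOXL2 libraries.

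Among the 10 sensors and transcription factors of the stress response, 1 rose (10%) and 2 fell (20%), beside 8.35% and 8.54% of all genes. DDIT3 (CHOP), the factor most closely tied to the lasting, harmful phase of ER stress, went from 31.9 and 34.6 FPKM in shControl to 20.8 and 20.4 FPKM in shLOXL2. Both shLOXL2 values lay well below the controls, at 62.0% of their mean, and this was the largest fall of the 44 genes (log2 -0.66 ± 0.055 SE, n = 2 per group, limma adjusted p = 0.0167). Its locus overlaps MARS1 in RefSeq, which was at 235 and 251 against 270.2 and 269.9 FPKM and did not pass (adjusted p = 0.108). ATF6, the sensor that is cut in the Golgi to release a transcription factor, fell from 19.7 and 19.4 to 15.5 and 14.2 FPKM (log2 -0.37 ± 0.059, limma adjusted p = 0.0394). CREB3L1 (OASIS), a related membrane-bound factor that is cleaved in the same way and drives collagen and secretory genes, rose from 12.8 and 12.5 to 19.3 and 17.4 FPKM (log2 0.50 ± 0.065, limma adjusted p = 0.0288).

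The other sensors and factors did not pass. XBP1 was at 50.7 and 51.3 against 55.0 and 57.2 FPKM, higher in both shLOXL2 libraries (log2 0.14, interval 0.027 to 0.24, limma adjusted p = 0.0971). IRE1 splices XBP1 mRNA, and a gene-level FPKM does not tell the spliced from the unspliced form. ATF4, which is controlled mostly at translation, was at 127.9 and 129.8 against 132.1 and 135.6 FPKM (log2 0.054, interval -0.040 to 0.15). PPP1R15A (GADD34), the phosphatase subunit that ends the PERK signal, was at 83.8 and 88.8 against 87.2 and 79.9 FPKM with overlapping groups. ATF6B (log2 0.15) and EIF2AK3, which encodes PERK (log2 0.28), were higher in both shLOXL2 libraries, with limma adjusted p of 0.0628 and 0.191. ATF6B passed with protein-coding genes alone (limma adjusted p = 0.0495), where a larger share of all genes passed. ERN1, the IRE1 gene, ran from 15.1 to 17.9 FPKM and CREB3L2 from 5.49 to 6.27 FPKM, both with overlapping groups.

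Of 10 genes of translocation, signal peptide removal and vesicle budding, 1 rose and 1 fell (10% each), both by little. Over all genes tested 8.35% rose and 8.54% fell. SSR2, a subunit of the translocon-associated TRAP complex, went from 184.3 and 183.0 to 158.60 and 158.62 FPKM (log2 -0.21 ± 0.027 SE, n = 2 per group, limma adjusted p = 0.0295). The other TRAP subunits SSR1, SSR3 and SSR4 had log2 differences of 0.042, -0.022 and -0.0056 and did not pass. SPCS2, a subunit of signal peptidase, went from 45.8 and 49.0 to 56.4 and 56.8 FPKM and only just passed (log2 0.25 ± 0.046, limma adjusted p = 0.0497). SPCS2 is uncertain, because its pseudogene SPCS2P4 is listed at 22.4, 22.4, 25.5 and 26.7 FPKM and may share its reads.

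The other subunits of the same peptidase, SPCS1 and SPCS3, were lower by log2 0.069 and 0.17 and did not pass. SEC61A1 and SEC61B, subunits of the protein channel, had log2 differences of 0.053 and -0.16 and did not pass (limma adjusted p = 0.433 and 0.0568). SEC24D, a cargo-binding subunit of the COPII coat, was at 23.87 and 23.95 against 29.0 and 26.3 FPKM (log2 0.20, adjusted p = 0.117). With protein-coding genes alone, where a larger share of all genes passed, SEC61B, SEC24D and SPCS3 passed (limma adjusted p = 0.0202, 0.0484 and 0.0271). With quantile normalization SEC61B and SPCS3 passed (limma adjusted p = 0.0245 and 0.0497). The 10 genes summed to 1288 and 1292 in shControl, and in shLOXL2 1238 and 1262 FPKM.

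The groups did not overlap for 29 of the 43 genes without AGR2 in either direction, 14 with shLOXL2 higher and 15 with shLOXL2 lower, beside 64.6% of all genes tested (31.8% higher and 32.8% lower). The 44 genes summed to 4554 and 4559 in shControl, and in shLOXL2 to 4895 and 4925 FPKM. Without AGR2 these sums were 4515, 4490, 4578 and 4605 FPKM. The FPKM totals of the libraries were higher in shLOXL2 as well, at 1330441 and 1369375 against 1244377 and 1221571. None of the sums given here was scaled to these totals.

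**Figure D3:**
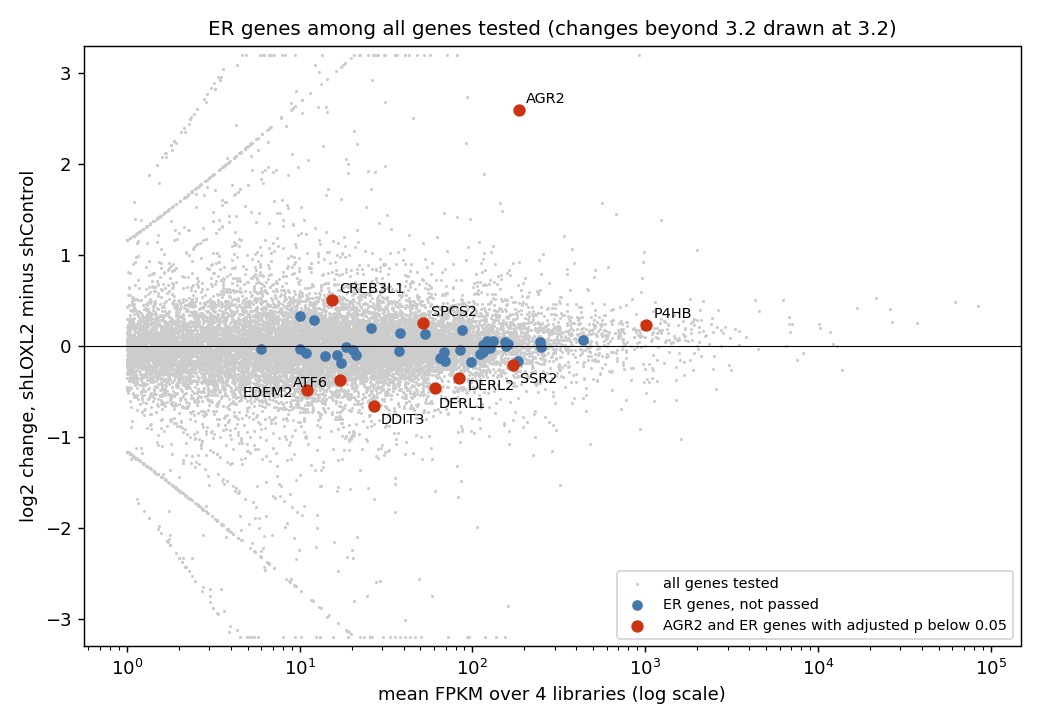
Log2 change between shLOXL2 and shControl against the mean FPKM over the 4 libraries (log axis) for the 16987 genes tested in grey, with the 44 ER genes in colour and changes beyond 3.2 drawn at 3.2. AGR2 lies at 2.59, and the other 43 genes lie between -0.66 and 0.50.

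Further genes of the same compartments were examined in lists that had not been picked for how they moved, although they were drawn up with earlier results of these data known. Over 7 lists of ER genes outside the 44, 104 of 112 genes were tested, and 11 rose and 17 fell, with a median log2 change of -0.028. The share that passed was 26.9%, beside 16.9% of all genes and 21.3% of those averaging 5 FPKM or more. The sizes were under 0.25 on the log2 scale for 65.4% of them, beside 63.1% of all genes.

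Of 12 tested genes among the other disulfide isomerases and thiol oxidases, 5 fell (41.7%) and 2 rose (16.7%). Over all genes tested 8.54% fell and 8.35% rose. The median log2 change of the 12 was -0.28. TMX1, a membrane-anchored thioredoxin-like isomerase, went from 64.1 and 66.3 to 38.7 and 40.6 FPKM (log2 -0.70, limma adjusted p = 0.0131). PDIA3, TXNDC12, TMX2 and TMX4 also fell, and PDIA3 is uncertain because its pseudogene PDIA3P1 is listed at 61.5 to 73.8 FPKM and may share its reads. DNAJC10 (ERdj5), a reductase that helps degradation, rose from 50.5 and 49.1 to 63.8 and 62.6 FPKM (log2 0.34, adjusted p = 0.0209), and the oxidase QSOX1 rose as well. AGR3, the closest relative of AGR2, was listed at 0 in 3 libraries and at 0.017 FPKM in the fourth.

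In the calnexin cycle, which folds glycoproteins, 2 of 8 genes fell (25%) and none rose, beside 8.54% and 8.35% of all genes. None of the 8 had an unadjusted p below 0.05 toward higher values in limma. The 2 that fell were the subunits of glucosidase II, the enzyme that trims glucose from new glycans. GANAB, its catalytic subunit, went from 223 and 218 to 134 and 131 FPKM (log2 -0.73, limma adjusted p = 0.0124). PRKCSH, its other subunit, went from 195.5 and 203.9 to 135 and 124 FPKM (log2 -0.62, adjusted p = 0.0191). Of 17 further degradation genes 2 fell (11.8%), among them the mannosidase-like EDEM3 (38.0 and 39.3 against 25.4 and 22.9 FPKM, log2 -0.66, limma adjusted p = 0.0205). Another 2 rose (11.8%), the ligases RNF5 and RNF139 (log2 0.33 and 0.46).

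Of 13 tested targets of PERK and ATF4, 2 rose (15.4%) and none fell, beside 8.35% and 8.54% of all genes. In limma 4 had an unadjusted p below 0.05 toward lower values, as did 18.2% of all genes. The median log2 change of the 13 was -0.069. CHAC1, which breaks down glutathione, went from 4.91 and 5.42 to 7.63 and 7.01 FPKM (log2 0.43, limma adjusted p = 0.0485) and DDIT4, an inhibitor of mTORC1, from 73.5 and 74.7 to 89.7 and 87.5 FPKM (log2 0.25, adjusted p = 0.0286). TRIB3, a pseudokinase induced by CHOP and ATF4, was at 18.40 and 18.37 against 19.5 and 20.5 FPKM and did not pass (adjusted p = 0.157). Of 10 further regulators of the stress response 2 rose (20%), WFS1 and NFE2L2, and 2 fell (20%). The 2 that fell were TRAF2 (log2 -0.26), an adaptor of IRE1, and TMBIM6 (log2 -0.47), an ER membrane protein that restrains IRE1.

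Of 26 further genes of translocation and N-glycan transfer 5 fell (19.2%) and 2 rose (7.69%), with a median of -0.020. Over all genes tested 8.54% fell and 8.35% rose. STT3B, a catalytic subunit of oligosaccharyltransferase, went from 134 and 142 to 89.1 and 87.5 FPKM (log2 -0.64, limma adjusted p = 0.0136), and SRPRA, which receives the signal recognition particle at the ER, from 54.8 and 54.6 to 36.2 and 38.1 FPKM (log2 -0.55, adjusted p = 0.0146). Of 18 further coat, cargo receptor and KDEL receptor genes 1 rose and 1 fell (5.56% each), with a median of 0.040. The cargo receptor subunit MCFD2 rose (log2 0.39) and the retrieval receptor KDELR3 fell (log2 -0.40).

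Of 13 genes reported with AGR2 in secretory epithelia 7 were tested, and 5 of these rose (71.4%) and none fell in limma (none at an unadjusted p below 0.05 toward lower values). The shares over all genes tested were 8.35% and 8.54%. SPDEF and ELF3 were known to be higher in these libraries when the list was drawn up, so its direction is not independent evidence. SPDEF, a transcription factor of goblet and luminal cells, went from 21.4 and 22.0 to 45.7 and 44.6 FPKM (log2 1.03, limma adjusted p = 0.0115) and FOXA2, a forkhead factor of endodermal epithelia, from 17.9 and 18.1 to 26.9 and 27.0 FPKM (log2 0.56, adjusted p = 0.0131). The trefoil peptides TFF2 and TFF3, which are secreted with mucus, and ELF3 rose by log2 0.85, 1.66 and 1.60. TFF3 and ELF3 were low in shControl (0.561 and 1.12 FPKM, and 1.55 and 0.994 FPKM), and TFF3, with a shControl mean of 0.841 FPKM, passed the filter only through the shLOXL2 libraries. Without SPDEF, ELF3 and TFF3 the list held 4 tested genes, of which FOXA2 and TFF2 rose (2 of 4). TFF1 was at 14.9 and 16.1 against 20.2 and 23.4 FPKM and did not pass (adjusted p = 0.0570). The mucins MUC1, MUC2, MUC5AC and MUC5B, FOXA1 and ESR1 averaged below 1 FPKM and were not tested, and CREB3L4 had a log2 difference of -0.016.

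**Figure D4:**
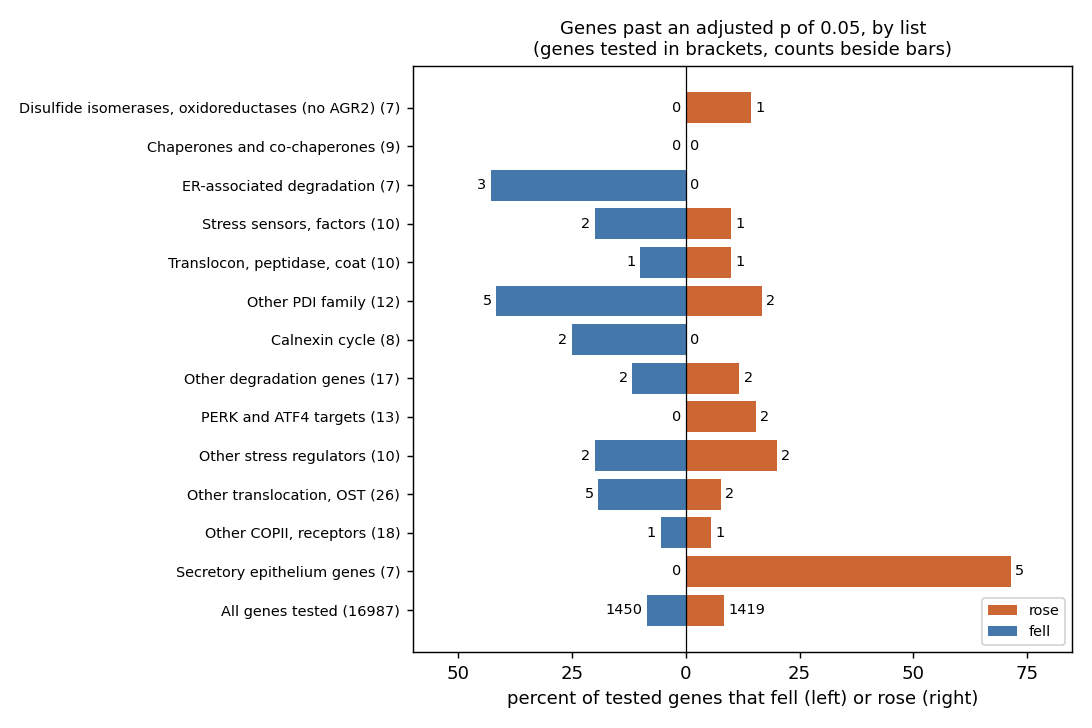
Percent of the tested genes of each list that rose (right, orange) or fell (left, blue) at an adjusted p below 0.05, with the counts beside the bars and all 16987 genes at the bottom. The 9 chaperones have 0 in either direction, 3 of 7 degradation genes fell, and the 5 of 7 secretory epithelium genes that rose include SPDEF and ELF3, known to be higher beforehand, and TFF3, tested only through its shLOXL2 level (2 of 4 without them).

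These calls depend on the libraries and on the filter. Fits without 1 library have 1 residual degree of freedom in place of 2. In them the calls of the 9 genes other than AGR2 did not hold. The call of AGR2 was also lost when either shLOXL2 library was left out. The log2 changes ran from -0.72 to -0.61 for DDIT3, from -0.53 to -0.44 for EDEM2 and from 0.43 to 0.57 for CREB3L1. For AGR2 they ran from 2.18 to 3.01. The groups of these genes did not overlap, so leaving out 1 library could not reverse their direction. Without a filter on low values DDIT3 alone passed.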

How the data were processed

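The authors deposited gene values in FPKM (63657 Ensembl genes, 1 column per RNA library). Per the submitters' processing notes, Cufflinks, Bowtie and GRCh37 were used, with no version recorded. The annotation was not given in the sources used here. FPKM carries no read count, so depth is unknown, and EEF1A1 is listed at 0 in all 4 libraries, so a 0 can be a failed estimate. The authors' means and fold changes and the peak lists were not used. Identifiers were paired with symbols for 39694 genes. Log2(FPKM + 1) values of genes averaging 1 FPKM or more were fitted with limma 3.58.1 (R 4.3.3), shLOXL2 against shControl, letting the prior variance follow intensity (two-sided, Benjamini-Hochberg adjustment). The pseudocount of 1 FPKM understates changes of low genes. The procedure was tested on simulated data. The members and lists were chosen with earlier results of these data known. Named are AGR2, each member that passed, 9 usual readouts of ER stress, and the 2 genes of smallest p in each other list, apart from a gene that is not reported here. The other members and listed genes named beside these were chosen after their values were seen.

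Alternatives covered the pseudocount, filter, scaling, variance prior, gene class, a replicate block and each library left out. Figures used matplotlib 3.10.9 (Python 3.11.15).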

Additional observations from a re-analysis of the deposited data

How the results depend on the processing

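Among the 43 ER genes other than AGR2, 3 rose, or 4 rose and 6 fell with AGR2 counted. No filter on low values gave 0 rises (0 without AGR2) and 1 fall, with 601 and 542 over the 36224 genes tested. There 18 ER genes (40.9%) had an unadjusted p below 0.05 in limma, beside 20.6% of all genes. The main fit also had 18, beside 35.9% of all genes. With a filter of 5 FPKM the ER share was 40.9%, beside 42.5% of all genes. Among protein-coding genes alone it was 43.2%, beside 48.6%. The share over all genes thus depends on how many low genes are tested, and the ER shares include AGR2. Quantile normalization gave 2 rises (1 without AGR2), 8 falls and a median of -0.055, with 1429 rises and 1481 falls over all genes. P4HB and SPCS2 no longer passed. A variance prior without a trend gave 2 rises (1 without AGR2) and 3 falls, and 926 rises and 1022 falls over all genes. Protein-coding genes alone gave 7 rises (6 without AGR2) and 9 falls, among them HYOU1 toward lower values. Over the 11216 genes tested this setting gave 2136 rises and 2178 falls. With a pseudocount of 5 FPKM the median was -0.022. With 1 library left out the ER rises ran from 0 to 1 (0 without AGR2), the falls were 0, the median ran from -0.032 to -0.021, and the counts over all genes ran from 18 to 220 that rose and from 70 to 217 that fell.

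With the replicate number as a block, 0 ER genes rose (0 without AGR2) and 0 fell, and 0 and 0 of all genes. At an unadjusted p below 0.05 in limma were 16 ER genes (36.4%) and 5519 of all genes (32.5%). This fit has 1 residual degree of freedom, and replicate differences of the groups correlated at -0.0013 over 16987 genes. That correlation cannot show whether the replicate numbers pair the libraries, and the labels do not state it.

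Directions changed for genes near 0 that did not pass. Quantile normalization gave -0.040 for PDIA6, -0.0077 for ERO1A, -0.011 for HSP90B1, 0.0095 for SYVN1 and -0.016 for SSR1, and median-ratio scaling gave 0.0013 for TXNDC5. With 1 library left out SYVN1 ran from -0.17 to 0.14, CREB3L2 from -0.11 to 0.050, TXNDC5 from -0.070 to 0.063, TXNDC11 from -0.20 to 0.051, SSR4 from -0.043 to 0.032, DNAJB9 from -0.11 to 0.018, SSR3 from -0.068 to 0.023, HSPA5 from -0.15 to 0.029 and PPP1R15A from -0.11 to 0.015. The cause of these differences was not tested.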
